A study of Mus musculus with 12 samples.

Results

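Immediate early genes are genes whose transcripts appear within minutes of a stimulus without any need for new protein. The 10 described here were chosen by gene symbol from 32867 genes in the count table, with earlier results of these data known. They are Fos, Fosb, Fosl2, Jun, Junb, Egr1, Egr2, Nr4a1, Arc and Atf3. All 10 were found, and 9 of them passed the filter on low counts in every comparison, while Egr2 passed it against C3H in 1 model only. Transcript levels were read from whole mouse retina in 4 groups of 3 samples each. The wild-type group, C3H, had 1 sample labelled with each of the postnatal days 13, 23 and 29. The 3 models of photoreceptor degeneration were Pde6b rd1 at day 13, Pde6b rd10 at day 23 and Prph rd2 at day 29, and every sample was labelled as taken at the peak of photoreceptor death. Pde6b encodes the beta subunit of the rod phosphodiesterase and Prph2 a structural protein of the outer segment disc.

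Neurons and glia switch on immediate early genes in response to depolarisation, growth factors, cytokines or injury, mostly through calcium and mitogen-activated kinase signals that reach the factors CREB and SRF already bound at their promoters. Their FOS and JUN products pair to form the AP-1 transcription factor, EGR and NR4A proteins bind DNA on their own, and ARC acts at synapses. In the retina, light and damage are well-known triggers of several of them.

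The groups differed in more than the mutation. The study's methods place C3H, Pde6b rd1 and Prph rd2 on a C3H background and Pde6b rd10 on C57Bl6/J, whereas the labels give C57BL6/J for Prph rd2. Xist, transcribed from the inactive X chromosome, had 8 to 10 reads in the C3H libraries and 64914 to 83716 in the Pde6b rd1 libraries, where all 4 Y-linked genes looked at had 0. Pde6b rd10 and Prph rd2 libraries held reads of both kinds. Sex and, for Pde6b rd10 and by the labels also Prph rd2, strain cannot be told apart from the mutation. Against C3H, 1 sample of each model's own labelled day was at hand, so age is set apart from the mutation by 1 labelled sample at most. Between models age cannot be told apart from the mutation at all. The mutated genes read lower than C3H in every model and lowest in their own, in reads per 1000000 reads on genes (CPM). C3H had Pde6b at 1212 to 1231 CPM and Prph2 at 2658 to 2929 CPM. Pde6b was at 285 to 290 CPM in Pde6b rd1, 849 to 873 CPM in Pde6b rd10 and 1037 to 1093 CPM in Prph rd2. Prph2 was at 1264 to 1447 CPM in Prph rd2, 1602 to 1703 CPM in Pde6b rd1 and 1929 to 2158 CPM in Pde6b rd10. A level below C3H was thus not particular to the mutated gene. Libraries held 17049495 to 24755890 reads on genes. The summed level of 8 rod genes was 25256 to 25919 CPM in C3H, 13289 to 13466 CPM in Pde6b rd1, 21439 to 22388 CPM in Pde6b rd10 and 16261 to 17436 CPM in Prph rd2. In such bulk tissue, fewer cells of a type and less RNA per cell cannot be told apart.

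The DNA just upstream of Fos, Fosb, Nr4a1 and Jun is shown here because the first 3 genes moved alike across the groups and Jun hardly moved. Each is the 250 bases before the RefSeq transcript start in mouse build GRCm38.p6, written 5′ to 3′ on the gene's own strand. Capitals mark TGACG, the half-site of the cAMP response element bound by CREB, and GCGNGGGCG, an EGR site, each found on either strand. The Fos window is chr12:85473640-85473889 (plus strand), the Fosb window chr7:19310046-19310295 (minus strand), the Nr4a1 window chr15:101266596-101266845 (plus strand) and the Jun window chr4:95052223-95052472 (minus strand).
Fos: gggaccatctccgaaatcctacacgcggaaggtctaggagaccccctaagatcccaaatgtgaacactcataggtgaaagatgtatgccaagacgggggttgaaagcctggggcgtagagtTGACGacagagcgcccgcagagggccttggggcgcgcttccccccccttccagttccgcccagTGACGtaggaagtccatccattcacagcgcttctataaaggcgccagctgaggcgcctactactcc
Fosb: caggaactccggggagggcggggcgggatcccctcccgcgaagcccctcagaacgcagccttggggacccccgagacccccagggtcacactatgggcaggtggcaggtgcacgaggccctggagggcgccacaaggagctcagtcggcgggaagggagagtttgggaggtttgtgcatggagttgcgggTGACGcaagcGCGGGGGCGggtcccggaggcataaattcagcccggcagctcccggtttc
Nr4a1: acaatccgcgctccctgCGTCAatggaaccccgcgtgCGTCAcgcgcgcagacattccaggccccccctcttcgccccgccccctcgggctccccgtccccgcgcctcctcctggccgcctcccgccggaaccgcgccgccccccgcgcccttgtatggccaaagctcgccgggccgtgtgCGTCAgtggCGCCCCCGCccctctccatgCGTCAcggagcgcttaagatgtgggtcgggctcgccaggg
Jun: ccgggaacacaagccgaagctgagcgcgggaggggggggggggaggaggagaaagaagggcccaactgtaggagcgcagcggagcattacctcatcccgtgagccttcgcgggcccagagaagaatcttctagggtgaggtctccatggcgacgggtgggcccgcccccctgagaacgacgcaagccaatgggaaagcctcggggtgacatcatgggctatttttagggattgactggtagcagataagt
The Fos window held 2 half-sites, the Fosb window 1 half-site and 1 EGR site, the Nr4a1 window 4 half-sites and 1 EGR site, and the Jun window none of the motifs searched. Egr1, which had the same order of groups as Fos, and Arc had no window in the source used, so their upstream DNA was not searched. Of the 8 genes with a RefSeq window, 6 held a half-site in at least 1 window (Fos, Fosb, Junb, Egr2, Nr4a1 and Atf3). An EGR site was held by 3 (Fosb, Fosl2 and Nr4a1). Of all 27025 genes with a window, 19.8% held a half-site and 5.33% an EGR site in at least 1 window, and over all 32851 windows of this length the shares were 17.8% and 4.70%. The full element TGACGTCA, in which the half-site is contained, was in 1.55% of all windows, and the AP-1 site TGANTCA was in 6.75%. Neither was found in a window of these genes. The CArG box bound by SRF stood in 1.47% of all windows and in 1.62% of all genes with a window. Among these genes it was found for Egr2 alone, in 4 of its 5 windows. The Egr2 windows that start at chr10:67537619, chr10:67537620 and chr10:67537680 overlap and hold the same site, CCATATATGG, so these are not separate finds. Only exact matches were counted, so tgacatca in the Jun window, which differs from TGACGTCA by 1 base, was not. Sites further than 250 bases from the start were not searched. These matches describe the letters of the windows only.

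Fos encodes the founding FOS protein of AP-1 and lies at chr12:85473890-85477273. It was read at 32.8, 32.0 and 31.4 CPM in the C3H samples of days 13, 23 and 29, at 70.1, 77.9 and 70.7 CPM in Pde6b rd1, at 49.1, 53.7 and 48.1 CPM in Pde6b rd10 and at 11.9, 12.8 and 11.4 CPM in Prph rd2. No 2 groups overlapped, and the groups stood in the order Pde6b rd1, Pde6b rd10, C3H, Prph rd2. Against C3H, Fos rose in Pde6b rd1 by a log2 fold change of 1.11 ± 0.05 (SE, n = 3 and 3, edgeR adjusted p = 1.81e-14) and in Pde6b rd10 by 0.59 ± 0.06 (edgeR adjusted p = 3.53e-08), and it fell in Prph rd2 by 1.45 ± 0.07 on the log2 scale (edgeR adjusted p = 1.43e-08). A gene was called where its unadjusted p was under 0.05 and it differed at least 1.5-fold, as the study's methods set. The Pde6b rd10 fold of 1.51 was just past the minimum: it was no longer called without Pde6b rd10 replicate 2 (log2 0.55), without C3H replicate 3 (log2 0.58) or with a correction for GC content (log2 0.48).

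Fosb (chr7:19302696-19310051), which encodes another FOS protein and, by splicing, a long-lived shorter form, had 95 to 114 reads in a C3H sample, 519 to 602 reads in Pde6b rd1, 215 to 255 reads in Pde6b rd10 and 47 to 73 reads in Prph rd2. It stood at 5.34, 4.74 and 4.80 CPM in C3H, at 27.6, 30.4 and 26.9 CPM in Pde6b rd1, at 10.3, 11.48 and 11.998 CPM in Pde6b rd10 and at 2.32, 3.05 and 1.94 CPM in Prph rd2. The 4 groups again kept apart, in the same order as for Fos. The log2 fold change of 2.44 ± 0.09 in Pde6b rd1 (SE, edgeR adjusted p = 1.80e-16), a 5.42-fold difference, was the largest rise among the 9 genes tested in that model. Fosb rose by 1.13 ± 0.11 in Pde6b rd10 (edgeR adjusted p = 2.91e-08) and fell by 1.05 ± 0.17 in Prph rd2 (edgeR adjusted p = 0.00121), both on the log2 scale. The Prph rd2 call was lost on the log2(FPKM + 1) scale, where the value was -0.37.

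Nr4a1 (chr15:101254269-101274795), an orphan nuclear receptor induced by calcium entry, followed the same order. Its levels were 20.9, 22.2 and 23.0 CPM in C3H, 68.4, 70.4 and 64.5 CPM in Pde6b rd1, 46.9, 49.9 and 46.9 CPM in Pde6b rd10 and 10.4, 10.03 and 9.73 CPM in Prph rd2. No groups overlapped, and the spread within a group was small, with a standard deviation of 3.29% to 4.83% of the mean. Nr4a1 rose by a log2 fold change of 1.54 ± 0.06 in Pde6b rd1 (SE, edgeR adjusted p = 1.04e-16) and of 1.06 ± 0.06 in Pde6b rd10 (edgeR adjusted p = 7.75e-12). It fell by 1.16 ± 0.08 in Prph rd2 (edgeR adjusted p = 3.95e-07).

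Egr1, a zinc-finger factor that responds to growth factor and synaptic signals, shared the order but not the sizes. Its 3 samples stood at 48.1, 46.5 and 48.5 CPM in C3H, at 130.5, 131.0 and 122.2 CPM in Pde6b rd1, at 59.2, 58.2 and 53.4 CPM in Pde6b rd10 and at 35.0, 32.8 and 31.6 CPM in Prph rd2. The groups did not overlap, yet only the Pde6b rd1 difference passed the fold minimum (log2 1.35 ± 0.04, edgeR adjusted p = 9.10e-18). In Pde6b rd10 the log2 fold change was 0.20 ± 0.05 (edgeR adjusted p = 0.00386), a fold of 1.15. In Prph rd2 it was -0.56 ± 0.06 (edgeR adjusted p = 3.88e-05), and it passed the minimum without Prph rd2 replicate 1 (log2 -0.60) or against the day 29 C3H sample alone (log2 -0.59).

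**Figure D1:**
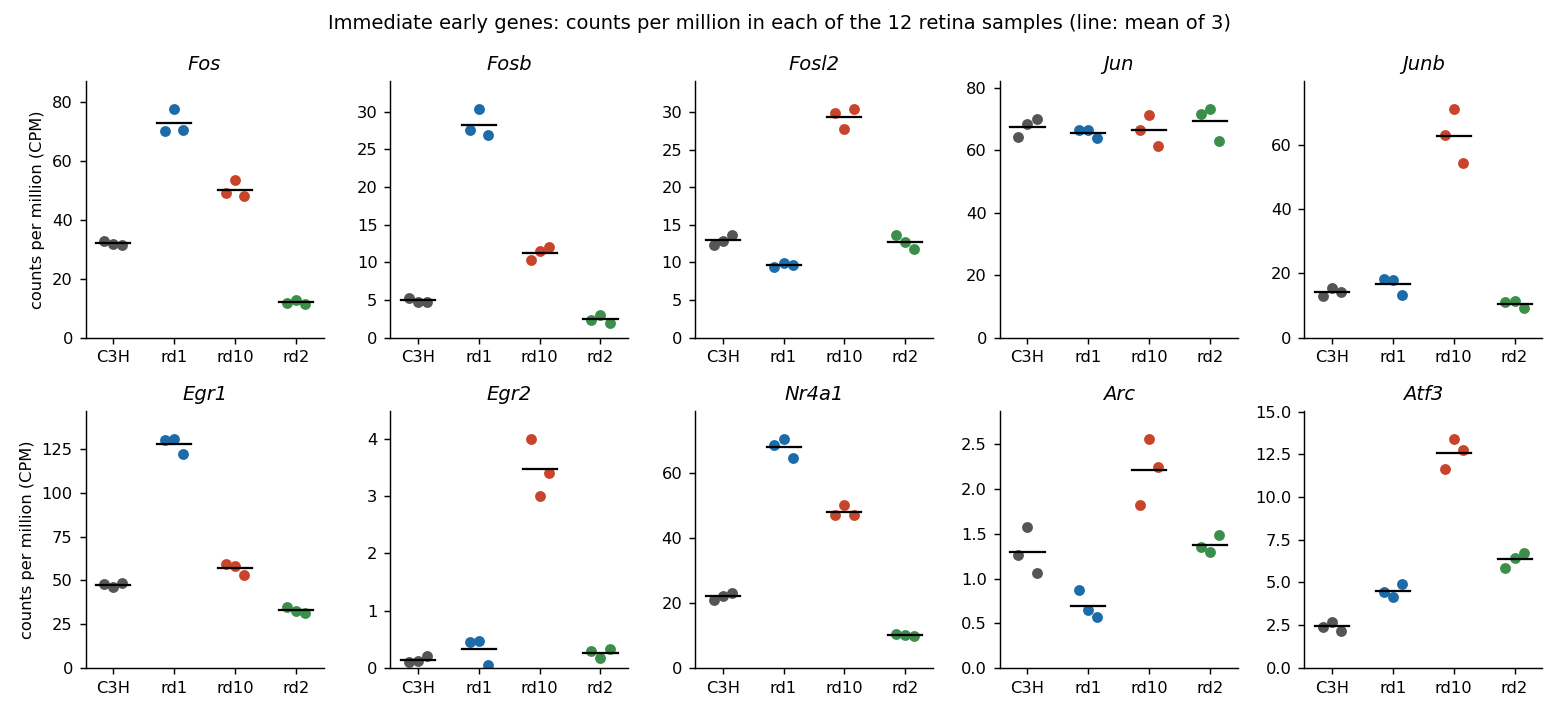
CPM (vertical axis, from 0) of the 10 genes in the 12 retina samples, by group (horizontal axis: C3H, Pde6b rd1, Pde6b rd10, Prph rd2). Points are samples and lines the means of 3. Fos, Fosb, Egr1 and Nr4a1 were highest in Pde6b rd1 and lowest in Prph rd2, while Fosl2, Junb, Egr2, Arc and Atf3 were highest in Pde6b rd10 and Jun lay between 61.3 and 73.3 CPM throughout.

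Fosl2 (chr5:32135801-32157842) encodes FRA2, a FOS protein that typically appears later than Fos after a stimulus. It was at 12.3, 12.8 and 13.7 CPM in C3H, at 9.39, 9.97 and 9.71 CPM in Pde6b rd1, at 29.9, 27.7 and 30.4 CPM in Pde6b rd10 and at 13.6, 12.7 and 11.8 CPM in Prph rd2. The Pde6b rd10 samples lay above all others and the Pde6b rd1 samples below all others, while C3H and Prph rd2 overlapped. Fosl2 rose in Pde6b rd10 by a log2 fold change of 1.13 ± 0.07 (SE, edgeR adjusted p = 5.91e-11). The Pde6b rd1 difference of -0.49 ± 0.09 (edgeR adjusted p = 1.01e-04) was under the fold minimum, and in Prph rd2 the log2 value was -0.06 with a 95% interval of -0.25 to 0.14.

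Junb (chr8:84974484-84978718) encodes a JUN protein with weaker activating power than JUN itself. Its levels were 12.9, 15.3 and 14.1 CPM in C3H, 18.4, 18.1 and 13.3 CPM in Pde6b rd1, 63.1, 71.4 and 54.3 CPM in Pde6b rd10 and 10.99, 11.6 and 9.32 CPM in Prph rd2. Pde6b rd10 stood far above the other groups, Pde6b rd1 overlapped C3H, and Prph rd2 lay below C3H without overlap. The log2 fold change was 2.09 ± 0.09 in Pde6b rd10 (SE, edgeR adjusted p = 4.60e-14), 0.15 ± 0.10 in Pde6b rd1 (edgeR adjusted p = 0.236) and -0.45 ± 0.10 in Prph rd2 (edgeR adjusted p = 0.0134, under the fold minimum). Junb shares 351 bases with Prdx2 on the opposite strand, which had 39989 reads over the 12 samples, and whether the counting used strand is not given in the sources used here.

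Jun (chr4:95049034-95052222), the central JUN partner of AP-1, was the exception. It was at 64.2, 68.3 and 69.8 CPM in C3H, at 66.4, 66.3 and 63.8 CPM in Pde6b rd1, at 66.4, 71.2 and 61.3 CPM in Pde6b rd10 and at 71.4, 73.3 and 62.8 CPM in Prph rd2. All 4 groups overlapped. For Pde6b rd1 the log2 fold change had a 95% interval of -0.21 to -0.02, for Pde6b rd10 of -0.20 to 0.04 and for Prph rd2 of -0.13 to 0.14, so each lay inside the 1.5-fold minimum of 0.585. Jun shares 689 bases with the antisense gene Junos, which had 898 reads in all.

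Because FPKM divides by gene length, it allows the genes of a family to be set side by side. The summed level of the 4 FOS genes, with Fosl1 added, was 15.9 ± 0.392 FPKM in C3H (SD, n = 3), 36.7 ± 2.21 FPKM in Pde6b rd1, 27.2 ± 1.22 FPKM in Pde6b rd10 and 6.96 ± 0.518 FPKM in Prph rd2. Fos itself made up 85.7% of it in C3H, and 84.5%, 78.7% and 73.5% of it in the Pde6b rd1, Pde6b rd10 and Prph rd2 groups. The share of Fosb was 4.99% in C3H and 12.4% in Pde6b rd1, and that of Fosl2 was 8.42% in C3H, 2.73% in Pde6b rd1 and 18.9% in Prph rd2. The 3 JUN genes summed to 72.7 ± 6.62 FPKM in C3H and 99.2 ± 15.3 in Pde6b rd10, and the share of Junb was 8.47% in C3H and 27.6% in Pde6b rd10. Jund, the JUN gene that is usually present without a stimulus, held the largest JUN share in every group. Each share is of the family sum in the same sample, so it can move without a change in that gene. Fosl2 was at 1.34 FPKM in C3H and 1.31 FPKM in Prph rd2, where Fos was at 13.6 and 5.11 FPKM. Total FPKM is also not a fixed amount between samples.

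**Figure D2:**
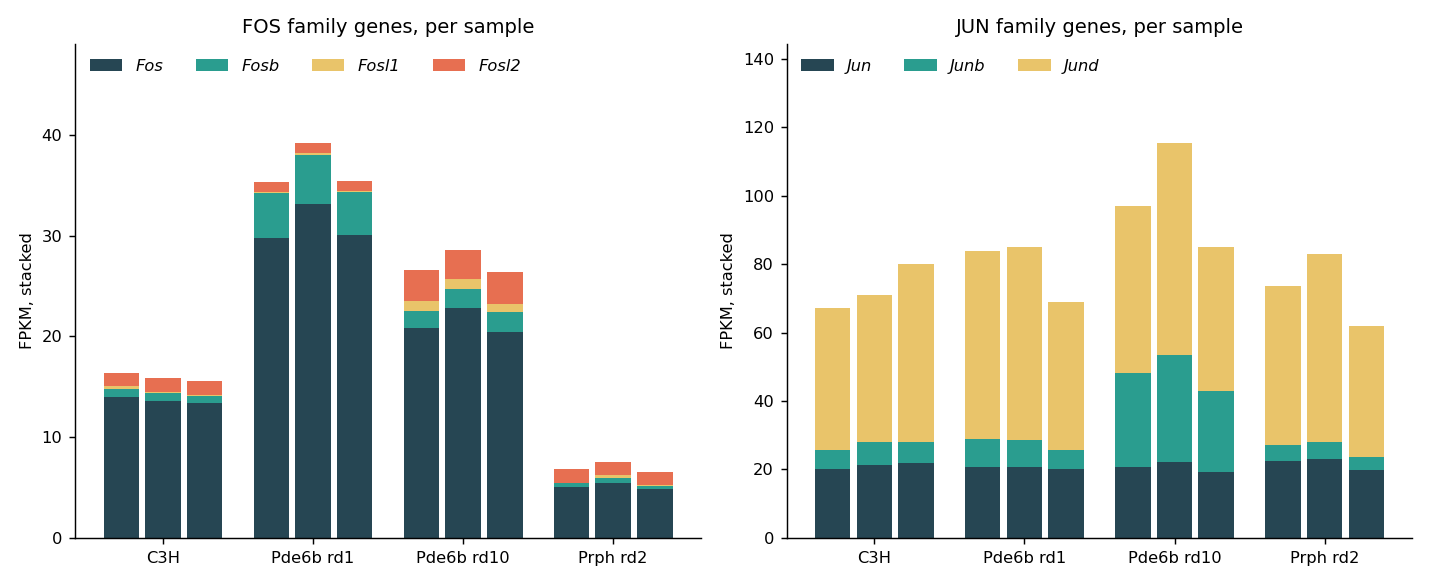
FPKM (vertical axis, stacked from 0) of the FOS genes (left) and JUN genes (right) in each sample, with 3 bars per group on the horizontal axis and 1 colour per gene. The FOS total was lowest in Prph rd2 (6.49 to 7.52 FPKM) and highest in Pde6b rd1 (35.4 to 39.2), and Junb was at 23.6 to 31.0 FPKM in Pde6b rd10 against 5.60 to 6.67 in C3H.

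Egr2 (chr10:67535475-67542188), which encodes a zinc-finger factor best known for myelination and immune cells, was nearly silent outside Pde6b rd10. It had 2, 3 and 4 reads in C3H, 10, 8 and 1 reads in Pde6b rd1, 7, 4 and 8 reads in Prph rd2 and 99, 56 and 68 reads in Pde6b rd10, or 3.999, 2.99 and 3.40 CPM in the last. The Pde6b rd10 samples did not overlap any other group, and the other 3 groups overlapped one another. Against C3H it rose by a log2 fold change of 4.52 ± 0.32 in Pde6b rd10 (SE, edgeR adjusted p = 2.04e-10), a fold of 22.9. The ratio of summed counts over summed reads on genes, without the scaling that edgeR applies, was 24.9 with a counting interval of 12.9 to 55.1. Egr2 was filtered out as too low in the other comparisons with C3H. There the ratios of this second kind were 2.31 (0.997 to 5.80) for Pde6b rd1 and 1.87 (0.807 to 4.70) for Prph rd2. These intervals cover counting error only. Beside it in Pde6b rd10, the summed level of 6 reactive glia genes was 1026 to 1036 CPM against 54.9 to 61.2 in C3H, that of 7 microglia genes was 160 to 175 CPM against 53.8 to 56.9, and that of 5 other leukocyte genes was 6.84 to 8.45 CPM against 0.101 to 0.302. Their part in the rise of Egr2, Junb, Fosl2 and Atf3 was not tested. In Pde6b rd1 and Prph rd2 the reactive glia sum was 56.2 to 59.3 CPM.

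Atf3 (chr1:191170296-191218039) encodes a stress-responsive factor of the ATF family and is a common mark of injured neurons. It was at 2.42, 2.70 and 2.17 CPM in C3H, at 4.44, 4.16 and 4.93 CPM in Pde6b rd1, at 5.87, 6.44 and 6.72 CPM in Prph rd2 and at 11.6, 13.4 and 12.7 CPM in Pde6b rd10. Of the 9 genes tested in all 3 models, Atf3 alone was called higher than C3H in each, and no groups overlapped. The log2 fold change was 0.81 ± 0.16 in Pde6b rd1 (SE, edgeR adjusted p = 2.86e-04), 1.34 ± 0.14 in Prph rd2 (edgeR adjusted p = 3.13e-05) and 2.30 ± 0.13 in Pde6b rd10 (edgeR adjusted p = 2.67e-12). The Pde6b rd1 call was lost on the log2(FPKM + 1) scale, where the value was 0.54.

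Arc (chr15:74669083-74672570), a synaptic protein that controls receptor uptake, was scarce, with 11 to 48 reads in a library. Its levels were 1.26, 1.58 and 1.06 CPM in C3H, 0.870, 0.645 and 0.571 CPM in Pde6b rd1, 1.82, 2.56 and 2.25 CPM in Pde6b rd10 and 1.35, 1.30 and 1.48 CPM in Prph rd2. Pde6b rd1 lay below and Pde6b rd10 above all C3H samples, and Prph rd2 overlapped C3H. The log2 fold change was -0.97 ± 0.31 in Pde6b rd1 (SE, edgeR adjusted p = 0.0139) and 0.68 ± 0.23 in Pde6b rd10 (edgeR adjusted p = 0.0176), both called. In Prph rd2 it was 0.04 with a 95% interval of -0.50 to 0.58. The Pde6b rd10 call was lost without Pde6b rd10 replicate 2 (log2 0.56), without C3H replicate 3 (log2 0.56) and against the day 23 C3H sample alone (log2 0.41), and the Pde6b rd1 call was lost against the day 13 C3H sample alone (log2 -0.92). On the log2(FPKM + 1) scale, where Arc lay under 1 FPKM in each library, both calls and those between models given further on were lost.

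**Figure D3:**
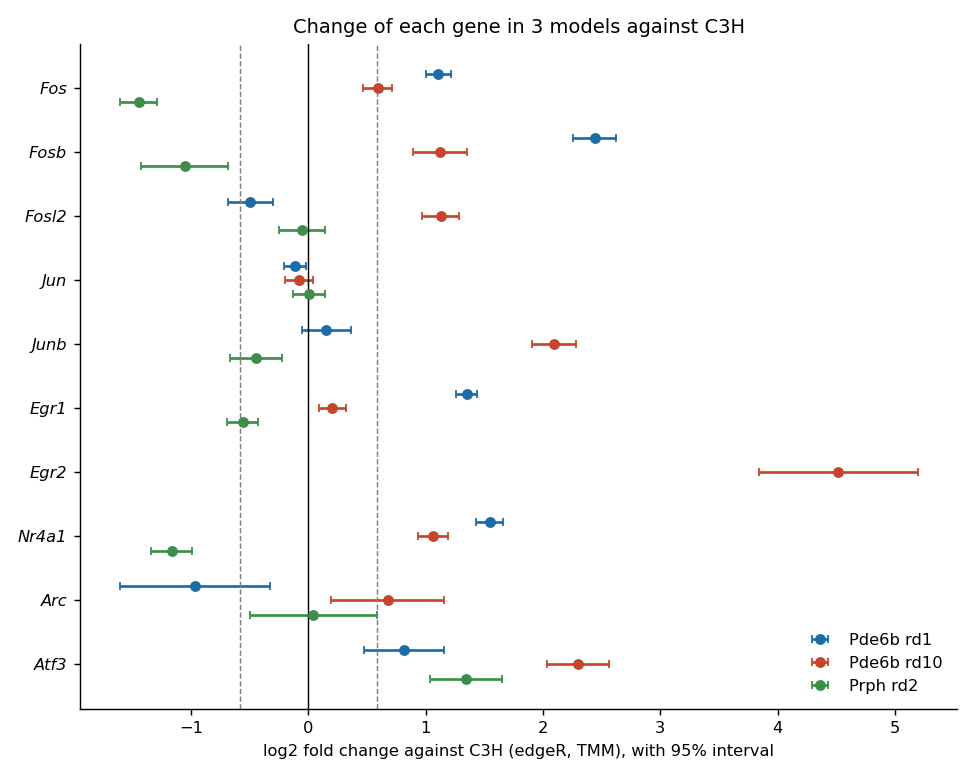
Log2 fold change against C3H (horizontal axis) with its 95% interval for the 10 genes (vertical axis) in 3 models, from edgeR, with dashed lines at a 1.5-fold change. Fos, Fosb and Nr4a1 lie to the right of 0 in both Pde6b models and to the left in Prph rd2, Atf3 lies to the right in all 3, and Egr2 is drawn for Pde6b rd10 only, since it was not tested in the other comparisons.

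Over the set, Pde6b rd1 had 5 of the 9 genes tested called above C3H and 1 below, where 8.98% of all 18310 genes tested were called higher, 6.03% lower and 15% in either direction. Pde6b rd10 had 8 of 10 above and 0 below, with 15.9% of 18704 genes called higher, 8.08% lower and 23.9% in either direction. Prph rd2 had 1 of 9 above and 3 below, with 2.68% of 18581 genes called higher, 1.89% lower and 4.57% in either direction. At an adjusted p under 0.05, whatever the fold, the counts were 8, 9 and 6, against 43.2%, 54.1% and 9.7% of all genes tested. Groups did not overlap for 7 of 9 genes in the first model, 9 of 10 in the next and 6 of 9 in the last, where 52.5%, 58.3% and 29.9% of all genes tested did not. The median log2 fold change of the genes tested was 0.81, 1.09 and -0.45, in that order, beside -0.01, 0.00 and 0.00 over all genes tested. The 3 comparisons share the C3H samples.

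The C3H samples carried 3 different ages, so each model was also set against the C3H sample of its own day, with that lone sample assumed to vary like the model's own. Called genes then numbered 5 higher and 0 lower for Pde6b rd1, 7 higher and 0 lower for Pde6b rd10, and 1 higher and 4 lower for Prph rd2. Apart from Egr2, the highest C3H sample was 1.04 to 1.49 times the lowest, with a median of 1.11 over the 9 genes, for samples labelled days 13, 23 and 29. Among the Pde6b rd1 samples, all of day 13, the same ratio was 1.04 to 1.52 with a median of 1.11. Whether each C3H sample holds only retina of its labelled day was not tested, which bears on what the same-day values mean.

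Levels in FPKM placed Jun first in C3H at 21.1 ± 0.903 (SD, n = 3), followed by Fos at 13.6 ± 0.310, Egr1 at 10.6 ± 0.234, Nr4a1 at 6.28 ± 0.303 and Junb at 6.14 ± 0.533, of which Nr4a1 and Junb overlapped. Fosl2, Atf3, Fosb, Arc and Egr2 followed, from 1.34 to 0.0419 FPKM. In Pde6b rd1 Fos led at 31.0 ± 1.84 FPKM, with Egr1 at 28.5 ± 1.10 FPKM and Jun at 20.5 ± 0.470 FPKM. In Pde6b rd10 Junb led at 27.3 ± 3.71 FPKM, above Fos at 21.4 ± 1.27 FPKM. In Prph rd2 Jun led at 21.7 ± 1.75 FPKM, and the next, Egr1, stood at 7.38 ± 0.389 FPKM.

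Contrasts between models were tested with all 12 samples in 1 fit. Pde6b rd10 and Pde6b rd1 carry mutations of the same gene but differ in age, strain and the mix of sexes. Between them, 5 genes were called with more RNA in Pde6b rd10 and 2 with less. Of all 19616 genes tested, 17.6% were called higher, 11.2% lower and 28.8% in either direction, 63.9% did not overlap between the groups, as held for 9 of the 10 genes, and 57.2% had an adjusted p under 0.05, also as for 9 of the 10. The higher genes were Egr2 (log2 3.43 ± 0.36, SE), Junb (1.97 ± 0.11), Arc (1.68 ± 0.26), Fosl2 (1.65 ± 0.08) and Atf3 (1.52 ± 0.11). The lower genes were Fosb (-1.29 ± 0.10) and Egr1 (-1.12 ± 0.05). Fos (-0.49 ± 0.06) and Nr4a1 (-0.45 ± 0.05) were under the fold minimum, and both passed it with a correction for GC content, which made the count 5 higher and 4 lower.

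Prph rd2 against Pde6b rd1 gave 1 gene higher and 4 lower, with 8.21% of all genes called higher, 8.66% lower and 16.9% in either direction. Groups did not overlap for 8 of the 10 (48.4% of all genes), and 8 had an adjusted p under 0.05 (39.8% of all genes). Arc was higher (log2 1.03 ± 0.27, SE), and Fosb (-3.47 ± 0.12), Nr4a1 (-2.69 ± 0.06), Fos (-2.53 ± 0.07) and Egr1 (-1.89 ± 0.05) were lower. Junb at -0.58 ± 0.13 and Atf3 at 0.55 ± 0.12 lay just under the fold minimum. Junb passed it with DESeq2 (-0.59), with the upper-quartile scaling (-0.62), with the GC correction (-0.64) and without Pde6b rd1 replicate 3 (-0.71), Prph rd2 replicate 2 (-0.64) or Prph rd2 replicate 1 (-0.61). Atf3 passed it without Pde6b rd1 replicate 3 (0.63) or Prph rd2 replicate 1 (0.60).

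In Pde6b rd10 against Prph rd2, 9 of 10 genes were higher and 0 lower, with 13.5% of all genes called higher, 6.16% lower and 19.7% in either direction. The same number, 9, did not overlap (48.5% of all genes) and had an adjusted p under 0.05 (43.9% of all genes). The values ran from 0.65 ± 0.22 (SE) for Arc to 3.67 ± 0.36 for Egr2, and Jun, the gene not called, was at -0.08 ± 0.06. The Arc call was lost without Pde6b rd10 replicate 2 (log2 0.53) and with the GC correction (log2 0.50).

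A wider list of 60 other immediate early genes was read in the same fits. In Pde6b rd1, 4 of the 58 tested were called higher and 7 lower, with a median log2 fold change of -0.08. The higher ones were Csrnp1 (1.47 ± 0.18, SE), Egr3 (1.20 ± 0.28), a close relative of Egr1 and Egr2, Klf10 (0.63 ± 0.08) and Trib1 (0.63 ± 0.03). Among those lower with no overlap of samples, the largest differences were of Arl4d (-1.42 ± 0.06), Gadd45b (-1.03 ± 0.27), Bhlhe40 (-0.92 ± 0.08), Arid5a (-0.74 ± 0.11) and Ier3 (-0.70 ± 0.07).

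In Pde6b rd10, 20 of the 60 were called higher and 2 lower, with a median of 0.28. The largest rises were of Cebpd (log2 4.48 ± 0.10, SE), a factor of the acute-phase response, Socs3 (4.20 ± 0.10), a brake on cytokine signals, Gadd45b (3.50 ± 0.12), Zfp36 (2.72 ± 0.13), which speeds decay of inflammatory transcripts, and Fosl1 (2.70 ± 0.39), the remaining FOS gene. Trib1 (-1.27 ± 0.04) and the neuronal activity gene Npas4 (-1.24 ± 0.26) were lower. In Prph rd2, 0 of 59 were called higher and 4 lower, with a median of -0.06. Npas4 (-1.28 ± 0.25), the kinase phosphatase Dusp1 (-0.80 ± 0.07) and Arl4d (-0.67 ± 0.07) lay below C3H with no overlap. The fourth, Egr4 (-1.16 ± 0.45), overlapped C3H and is named here after its values were seen. The shares of all genes called are those given above for each model.

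**Figure D4:**
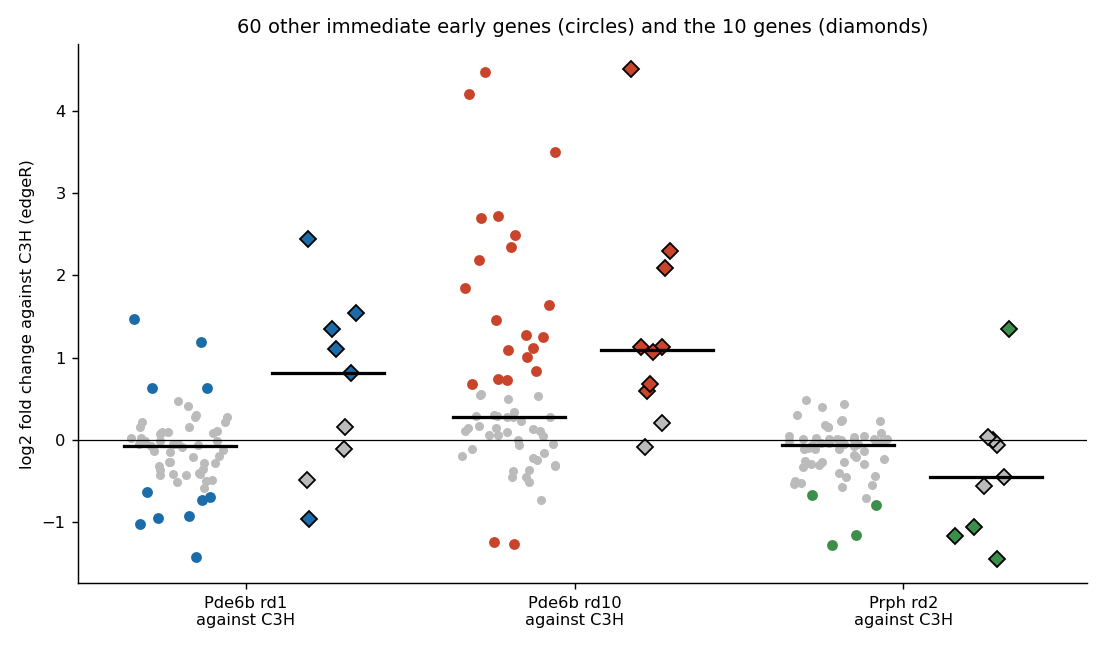
Log2 fold change against C3H (vertical axis) of the tested genes among 60 other immediate early genes (circles) and the 10 genes described here (diamonds) in 3 models (horizontal axis). Coloured symbols were called, grey ones were not, and black lines are medians (-0.08 and 0.81 in Pde6b rd1, 0.28 and 1.09 in Pde6b rd10, -0.06 and -0.45 in Prph rd2).

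Of 30 listed regulators and partners, 28 were tested, and 10.7%, 14.3% and 3.57% of them were called in Pde6b rd1, Pde6b rd10 and Prph rd2, each below the share of all genes called (15%, 23.9% and 4.57%). In Pde6b rd1, Nab2, a co-repressor that binds EGR proteins, was higher (log2 0.65 ± 0.11, SE), and Mef2c (-1.59 ± 0.07) and Camk2a (-0.78 ± 0.06), a calcium-responsive factor and kinase, were lower. In Pde6b rd10, Nab2 (1.21 ± 0.11), the kinase Rps6ka1 (0.94 ± 0.10), Mef2c (0.80 ± 0.06) and Elk3 (0.65 ± 0.09), which binds DNA with SRF, were higher and 0 were lower. In Prph rd2 Mef2c (-0.73 ± 0.08) was lower and 0 were higher. The remaining regulators, such as the CREB and SRF genes, were not called in these comparisons.

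The 3 genes with the widest range of group means were Egr2, Fosb and Nr4a1. For Egr2 no likeness is given, since 2 of its 3 fold changes rest on 1 to 10 reads a library. Among 19616 genes, the smallest root mean square difference in the 3 log2 fold changes against C3H was to Edaradd (0.358), Chrnb4 (0.401) and H19 (0.406) for Fosb, and to H19 (0.151), Mki67 (0.201) and Gm14154 (0.265) for Nr4a1. These likenesses rest on 4 group means of 12 samples and are a description only. None of the 12510 circular RNAs in the files was listed with any of the 10 as its host gene.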

How the data were processed

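Total RNA of whole retina in 12 samples was depleted of ribosomal RNA, sequenced on an Illumina HiSeq and, per the labels and the study's methods, aligned to GRCm38 and counted with HTSeq 0.11.2. The deposited read counts per gene, as the authors left them, were tested. The deposited FPKM values, which the authors computed from them, were used only to compare genes, and in a limma alternative on log2(FPKM + 1) and log2(FPKM + 0.1). The circular RNA counts that the authors deposited were searched for host genes only. CPM is a count per 1000000 reads on genes. edgeR 4.0.16 (R 4.3.3) was run with TMM scaling, its default filter on low counts and the quasi-likelihood test, on each model against C3H, and on all 12 samples for contrasts between models. Adjusted p-values are Benjamini-Hochberg over all genes tested, and SE and 95% intervals come from the same fit. On simulated counts, 100% of 2-fold changes were recovered in each of the 3 comparisons with C3H. The changed genes there were drawn from well-read genes only, and all genes were given the same spread. Arc and Egr2 were too low to be drawn, so the simulation does not cover genes as scarce as these. Alternatives used DESeq2 1.42.0 and limma 3.58.1.

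All 10 genes are named in each comparison. From the other lists, up to 5 genes a direction are named by fold, among those called with no overlap of samples. The genes and lists were chosen with earlier results of these data known. The study calls its triplicates biological replicates, but the sources used here do not say how many animals each library held, and p-values measure only the spread between these samples. Replicates differed by more than sampling noise (chi-square per gene 1.76 to 12.3), so none was counted as a second reading of the same library. That value cannot tell separate animals from separate preparations of the same RNA, so independence of the replicates was not tested. The spread between replicates beyond counting noise, as a coefficient of variation from edgeR, was 3.11% in C3H and 3.33% in Pde6b rd1. It was 5.02% in Pde6b rd10 and 7.39% in Prph rd2. Gene positions are from GENCODE vM21 and promoter windows from RefSeq.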

Additional observations from a re-analysis of the deposited data

Results flagged for a closer look

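For 4 genes the level changed in opposite directions against C3H in different models, and the difference between the models was tested directly with edgeR in the fit of all 12 samples. Fos was higher than C3H in both Pde6b models and lower in Prph rd2. Its log2 difference was -2.53 for Prph rd2 minus Pde6b rd1 and 2.04 for Pde6b rd10 minus Prph rd2. For Fosb the same differences were -3.47 and 2.18, and for Nr4a1 they were -2.69 and 2.23. Arc was lower than C3H in Pde6b rd1 and higher in Pde6b rd10, with a log2 difference of 1.68 for Pde6b rd10 minus Pde6b rd1, on 11 to 48 reads a library. The models also differed in age, in the mix of sexes and in strain, which cannot be told apart from the mutation between models. Groups of 3 were not examined for single outlying samples.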

How the results depend on the processing

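The count of genes called among the 10 stayed within 1.5 times its value under every alternative tried in each of the 6 comparisons. Of 838 single-gene values under alternatives, 799 kept their direction and side of the threshold, 13 gained a call, 16 lost one and 10 changed sign. The sign changes were all of values near 0: Jun in Prph rd2 against C3H (-0.0489 against the day 29 C3H sample alone, and -0.0346 to 0.0651 with each sample left out, below 0 without Prph rd2 replicate 1 or 2 or C3H replicate 1), Arc in the same comparison (-0.0802 to 0.215 with each sample left out, below 0 without Prph rd2 replicate 3 or C3H replicate 3), Jun in Pde6b rd10 against Pde6b rd1 (-0.18 with a GC correction, added after the data were seen), and Egr2 in Prph rd2 against Pde6b rd1 (-0.725 to 0.143 with each sample left out, above 0 without Prph rd2 replicate 2 or Pde6b rd1 replicate 1 or 2). The wider list was called at 6 in Pde6b rd1 and 2 in Prph rd2 on log2(FPKM + 1), against 11 and 4, and at 27, 44 and 12 in Pde6b rd1, Pde6b rd10 and Prph rd2 with an adjusted p under 0.05 and no fold minimum, against 11, 22 and 4; the missing fold minimum makes the second rule wider by construction, and for the log2(FPKM + 1) scale the cause was not tested. With each sample left out in turn, the 10 genes gave 6, 6 to 8 and 4 to 5 calls in Pde6b rd1, Pde6b rd10 and Prph rd2 against C3H, and the wider list 9 to 12, 22 to 23 and 3 to 6.

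The replicate numbers were not taken to pair the samples, since not every same-numbered pair correlated above 0.1 in any of the 6 comparisons. Same-numbered samples correlated at 0.0573 to 0.126, -0.0418 to -0.00113 and -0.0710 to 0.0665 in Pde6b rd1, Pde6b rd10 and Prph rd2 against C3H. Between models they correlated at -0.0362 to 0.136 (Pde6b rd10 and Pde6b rd1), -0.105 to 0.299 (Prph rd2 and Pde6b rd1) and 0.0230 to 0.225 (Pde6b rd10 and Prph rd2), with 2 of 3 pairs above 0.1 in each, and differently numbered samples at -0.411 to 0.202. A replicate block gave 6, 8 and 4 calls among the 10 genes and 11, 22 and 4 in the wider list against C3H, and 7, 5 and 9 calls among the 10 genes between models, as without the block, and changed no call in the 58 single-gene tests. Depth limits Egr2 and Arc most, at 1 to 10 reads a library for Egr2 outside Pde6b rd10 and 11 to 48 for Arc.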
